A study of Mus musculus with 10 samples.

Results

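Trimethylation of lysine 27 of histone H3 (H3K27me3), mapped by native chromatin immunoprecipitation and sequencing in mouse forebrain neural stem and progenitor cells, was compared between cells given crotonate and cells given water. All peaks on chromosomes 1 to 19 of the deposited H3K27me3 lists were taken, 34209 from crotonate and 25338 from control, which are 59547 of the 273422 peaks on all chromosomes in the 8 lists of the series. The other 6 lists hold H3K4me3, H3K9cr (crotonylation of lysine 9) and H3K27ac in both treatments and were used only to describe what else lay at the H3K27me3 regions. The crotonate group is the cells that received 10 mM crotonate for 24 h, and the control group is the cells that received water for the same time. Both groups were passage 2 to 3 cultures from the forebrain of E13.5 embryos, grown with EGF and FGF (20 ng/ml of either). No genotype or strain is given in the labels. Each treatment has 1 H3K27me3 library, so no difference below has a replicate check and no test was run. The labels give 1 antibody catalogue number for both libraries but PTM Biolab as the vendor in crotonate and Active Motif in control, and a change of antibody and of treatment cannot be told apart here.

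H3K27me3 is deposited by Polycomb repressive complex PRC2 and read by the CBX proteins of PRC1. In neural progenitors it covers the genes of other lineages and of other positions along the body axis, such as the Hox clusters, as broad domains. Narrower H3K27me3 can lie at CpG-rich promoters that also carry H3K4me3. H3K27ac sits on the same lysine, so a single histone tail cannot carry both, and it marks active promoters and enhancers. Crotonate is a short-chain fatty acid from which cells make crotonyl-CoA, the donor for histone crotonylation. All 11 markers of forebrain neural stem and progenitor cells that were looked up had H3K4me3 and H3K27ac at the gene in crotonate and in control. Markers of other cell types carried H3K27ac too. It lay at 2 of 3 neuronal markers in crotonate and 3 in control, at 2 of 3 astrocyte markers in crotonate and 3 in control, and at 3 of 4 markers of the oligodendrocyte lineage in both. For endothelium and mesenchyme it lay at 3 of 5 markers in crotonate and 2 in control, and for microglia and blood at 2 of 5 in crotonate and 3 in control, with none at Cx3cr1 and Hba-a1 in control.

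The promoters at which H3K27me3 was found in 1 list only differed in sequence. RefSeq promoter windows of 300 bases, from 250 before to 50 after the annotated start, were available for 16457 genes on 18 of the autosomes (GRCm38.p6), which is 81.7% of the 20154 protein-coding genes there. An entry was available for 80.4% of the genes that gained and 75.5% of the genes that lost H3K27me3 over the gene window used further on, so sequences were compared over promoter entries and not over genes. A promoter was given to a list when a peak lay within 1 kb of the window. Of 3635 promoters with H3K27me3 in crotonate, 355 had it in crotonate only (9.77%), and of 4023 promoters with it in control, 743 had it in control only (18.5%). The promoters marked in crotonate only had a median of 5 CG dinucleotides and those marked in control only a median of 21. The medians were 18 for promoters in both lists, 12 for those in neither list and 14 for all 20085 promoter entries, of which 95.6% hold at least 1 CG.

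Below are 6 promoters that show the contrast, chosen after their values were seen. They belong to genes of the lists used further on, ribosomal protein genes left out, with all promoter entries of the gene in the same class. Their H3K27me3 peak had no partner in the other list. They are the 3 strongest by -log10 q of 4 such genes in crotonate and of 17 in control. Among the ribosomal genes left out, Rps6 (23 CG) and Rpl27 (11 CG) were marked in crotonate only, with a -log10 q of 15.4 each, above Nanog (11.5). Rpl9 (35 CG) and Rpl6 (8 CG) were among those marked in control only. Capitals mark each CG, which reads the same on both strands. The first group was marked in crotonate only.
Nanog: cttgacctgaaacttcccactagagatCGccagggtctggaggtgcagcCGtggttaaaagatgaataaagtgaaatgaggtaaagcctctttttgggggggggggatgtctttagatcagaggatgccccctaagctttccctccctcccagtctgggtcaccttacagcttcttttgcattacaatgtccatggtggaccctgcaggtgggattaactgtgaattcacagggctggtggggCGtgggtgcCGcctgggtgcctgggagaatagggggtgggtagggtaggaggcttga
Mesp2: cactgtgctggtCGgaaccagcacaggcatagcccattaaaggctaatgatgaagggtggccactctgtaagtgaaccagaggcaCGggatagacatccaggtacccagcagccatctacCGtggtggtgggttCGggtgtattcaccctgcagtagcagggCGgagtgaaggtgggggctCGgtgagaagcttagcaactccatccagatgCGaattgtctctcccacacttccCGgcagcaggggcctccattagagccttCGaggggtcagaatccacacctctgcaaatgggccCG
Rgs5: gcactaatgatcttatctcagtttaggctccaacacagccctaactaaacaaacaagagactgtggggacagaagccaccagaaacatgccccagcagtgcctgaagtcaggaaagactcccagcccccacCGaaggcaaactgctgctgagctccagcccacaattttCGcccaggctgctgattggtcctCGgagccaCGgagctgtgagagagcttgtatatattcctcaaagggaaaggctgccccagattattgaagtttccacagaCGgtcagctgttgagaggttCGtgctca
The second group was marked in control only.
Pcdh10: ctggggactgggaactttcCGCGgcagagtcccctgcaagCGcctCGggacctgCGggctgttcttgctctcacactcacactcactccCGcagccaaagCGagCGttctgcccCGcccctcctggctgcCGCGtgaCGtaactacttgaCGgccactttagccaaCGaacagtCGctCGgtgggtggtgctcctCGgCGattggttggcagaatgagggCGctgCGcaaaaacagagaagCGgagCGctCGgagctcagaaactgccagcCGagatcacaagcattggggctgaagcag
Ebf4: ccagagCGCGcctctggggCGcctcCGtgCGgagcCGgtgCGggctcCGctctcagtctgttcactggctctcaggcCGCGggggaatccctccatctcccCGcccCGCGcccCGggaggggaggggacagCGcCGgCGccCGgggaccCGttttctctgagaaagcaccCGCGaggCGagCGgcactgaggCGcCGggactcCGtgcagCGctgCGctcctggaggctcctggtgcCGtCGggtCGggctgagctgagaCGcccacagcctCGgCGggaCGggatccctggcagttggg
Epha4: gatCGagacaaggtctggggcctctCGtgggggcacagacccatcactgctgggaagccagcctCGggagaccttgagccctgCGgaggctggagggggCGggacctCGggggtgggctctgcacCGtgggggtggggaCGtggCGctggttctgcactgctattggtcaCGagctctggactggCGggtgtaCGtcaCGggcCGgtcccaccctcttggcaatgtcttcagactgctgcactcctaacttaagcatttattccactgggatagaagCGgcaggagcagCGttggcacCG

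Nanog, a transcription factor of pluripotent cells, has 4 CG in its window (chr6:122707239-122707538, + strand), and a crotonate peak of 1587 bp with a fold enrichment of 6.27 covered it. Mesp2, which patterns the somites, has 10 CG (chr7:79810477-79810776, + strand) and a crotonate peak of 531 bp with a fold enrichment of 4.36. Rgs5, a gene of pericytes, has 6 CG (chr1:169655251-169655550, + strand) and a crotonate peak of 469 bp with a fold enrichment of 2.67. The Nanog and Rgs5 promoters had no H3K4me3, H3K9cr or H3K27ac in either treatment. The Mesp2 promoter had H3K9cr in both treatments, and H3K4me3 and H3K27ac in control only.

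Pcdh10, a protocadherin, has 24 CG (chr3:45378148-45378447, + strand) and a control peak of 2071 bp with a fold enrichment of 8.65. Ebf4, of the early B cell factor family, has 35 CG (chr2:130295689-130295988, + strand) and a control peak of 980 bp with a fold enrichment of 8.13. Away from this promoter Ebf4 was marked in both lists. The gene body and 1 kb either side held 6.06 kb in crotonate and 8.44 kb in control. The fold enrichment there reached 51.5 in crotonate and 62.3 in control. Epha4, an ephrin receptor of axon guidance, has 17 CG (chr1:77515039-77515338, - strand) and a control peak of 2650 bp with a fold enrichment of 6.40. All 3 of these promoters carried H3K4me3, H3K9cr and H3K27ac in both treatments.

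The same held over all promoters. H3K27ac was near 23.7% of the crotonate-only promoters in crotonate and near 23.1% of them in control. It was near 90.04% of the control-only promoters in crotonate and near 91.7% of them in control, against 59.9% of all promoters in crotonate and 59.7% in control. Of the marked promoters with 0 to 4 CG, 34.4% of those in the crotonate list were crotonate only (exact Clopper-Pearson 95% interval 30.1% to 38.9%) and 11.9% of those in the control list were control only (8.69% to 15.8%). Of those with 30 or more CG, 2.74% were crotonate only (1.66% to 4.25%) and 21.9% were control only (19.2% to 24.8%). Such intervals here cover counting error only, and neighbouring regions are not independent.

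**Figure D1:**
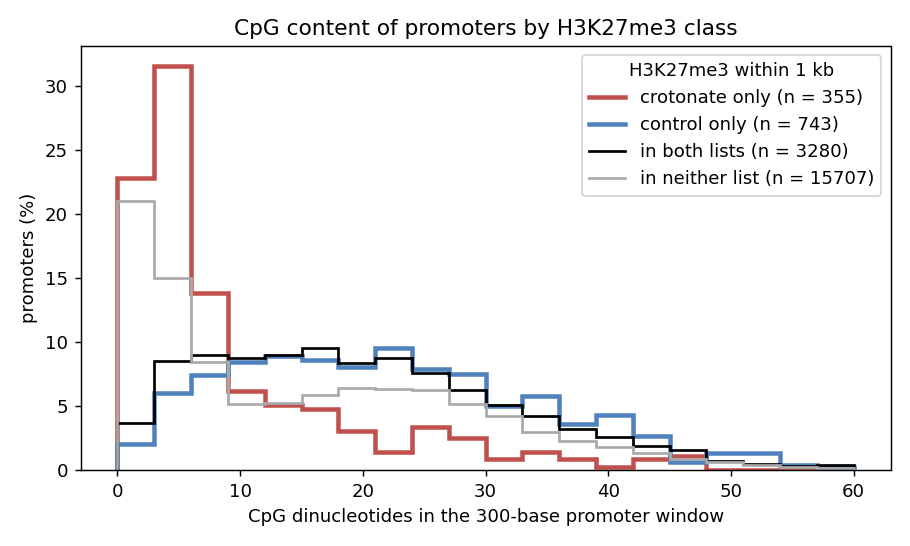
Share of promoters (y axis, % of each class) by the number of CG dinucleotides in the 300-base window (x axis), for promoters with an H3K27me3 peak within 1 kb in crotonate only, in control only, in both lists or in neither. The 355 crotonate-only promoters pile up at the low end (median 5), and the 743 control-only promoters follow the curve of the promoters in both lists (medians 21 and 18).

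The crotonate list held more and narrower peaks. Its 34209 peaks covered 50.4 Mb with a median width of 593 bp, and the 25338 control peaks covered 45.1 Mb with a median width of 740 bp. Crotonate had the higher number of peaks and the larger covered length on 19 of 19 chromosomes. Peaks wider than 10 kb numbered 549 in crotonate and 533 in control and covered 11.02 Mb in crotonate and 10.5 Mb in control. The X chromosome was left out, with 498 peaks in crotonate and 693 in control. Read totals were not used here, and the depth is unknown. As a stand-in, the lowest background pileup that any peak implies was 2.67 in crotonate and 2.69 in control. The strongest peaks stood out less in crotonate: the 99th percentile of fold enrichment was 18.9 times the list's median in crotonate and 32.7 times in control. The part that depth and enrichment had in the differences below was not tested.

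With sharing set at 1 bp of overlap, 15552 crotonate peaks had no control partner and are called gained (45.5% of the list), and 6490 control peaks had no crotonate partner and are called lost (25.6%). Both words refer to the lists. Gained and lost peaks were narrow and weak, with median widths of 375 bp for gained and 382 bp for lost peaks and a median -log10 q of 3.35 for gained and 3.32 for lost peaks. Among peaks under 500 bp, 73.0% of the crotonate peaks were gained and 49.3% of the control peaks were lost. Among peaks over 10 kb, 0 of 549 crotonate peaks were gained (up to 0.670% by the upper limit of the interval) and 0 of 533 control peaks were lost (up to 0.690%). In the full lists, peaks were divided at similar rates in both directions. Of the shared control peaks, 2250 were touched by 2 or more crotonate peaks (11.9%). Of the shared crotonate peaks, 2263 were touched by 2 or more control peaks (12.1%). With the crotonate list reduced to its strongest peaks, as many as in control, the counts were 1766 control and 2221 crotonate peaks.

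Counted by base, 36.7 Mb lay in peaks of both lists, 13.8 Mb in crotonate peaks only and 8.39 Mb in control peaks only. The crotonate-only bases lay in gene bodies less often (33.7%) than the control-only bases (47.9%). They also lay outside active chromatin. Of the crotonate-only bases, 0.317% were inside H3K27ac peaks of the crotonate list and 0.432% inside those of the control list. Of the control-only bases, 13.7% were inside H3K27ac peaks of the crotonate list and 17% inside those of the control list. For H3K4me3 of the control list the shares were 0.323% of the crotonate-only and 16.8% of the control-only bases.

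To compare broad regions, peaks of each list within 3 kb of each other were merged into domains. This gave 16451 crotonate domains spanning 67.0 Mb and 13276 control domains spanning 56.2 Mb, with median widths of 1592 bp in crotonate and 1966 bp in control. Domains over 30 kb numbered 258 in crotonate and 199 in control. Crotonate domains were less filled, with 75.3% of their span covered by peaks, against 80.2% in control. In all, 9236 domains matched one to one, 471 crotonate domains were fusions of 1037 control domains, and 196 control domains were split into 401 crotonate domains. A further 23 groups matched several domains of each list, 6297 domains were in crotonate only (38.3% of its domains) and 2755 in control only (20.8%). Of the domains over 10 kb, 1 of 1540 was in crotonate only and 0 of 1240 in control only. The excess of covered length in crotonate was made up of 3.64 Mb in crotonate-only domains, 1.90 Mb in one-to-one domains and 1.596 Mb in fused domains, set against 1.59 Mb in control-only domains. In split domains the covered length dropped by 0.242 Mb.

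Single-list domains lay in different places. The crotonate-only domains touched H3K27ac of the crotonate list in 1.02% of cases and H3K4me3 in 1.22%. The control-only domains touched H3K27ac of the control list in 28.8% and H3K4me3 in 23.3%. Among one-to-one domains the shares were 22.9% for H3K27ac and 37.5% for H3K4me3 in crotonate, and 30.6% and 37.1% in control. The control-only shares were thus near or below those of one-to-one domains, and the crotonate-only shares far below them. A protein-coding gene, or 1 kb around it, was touched by 34.5% of the crotonate-only and 51.2% of the control-only domains. For one-to-one domains this share was 59.3% in crotonate and 59.6% in control. The median distance to the nearest domain of the other list was 14.8 kb for crotonate-only and 11.99 kb for control-only domains.

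The 4 strongest gene-bound crotonate-only domains by -log10 q lay at Sdsl, a serine dehydratase-like enzyme, at Myo3a, a myosin of sensory hair cells, and at the ribosomal protein genes Rpl7 and Rpl27. The Sdsl domain was 1836 bp wide with a fold enrichment of 8.18 (chr5:120461502-120463337). The 4 strongest control-only domains lay at Rpl9, Rpl36, Naca, which encodes a chaperone subunit at the ribosome, and Rpl6, were 257 to 538 bp wide, and had fold enrichments of 19.5, 15.8, 14.6 and 14.4. All of these ribosomal and Naca intervals carried H3K4me3, H3K9cr and H3K27ac in both treatments. Ribosomal protein genes have many near-identical processed copies, so the place of these narrow peaks is uncertain.

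Among single-list domains of 1 kb or more, a minimum set after the values were seen, the strongest control-only domain lay at Nrarp, a feedback inhibitor of Notch signalling (1541 bp, fold enrichment 11.9). Jade2, Shroom3, Adora1, Dennd3, Unc13b, Slc35g2 and Hes7 followed, the last a repressor of the segmentation clock with 1300 bp and a fold enrichment of 8.92. All 8 carried H3K27ac in control. The 8 strongest crotonate-only domains of 1 kb or more lay at Sdsl, Tenm2, Robo1, Wdr27, Mucl3, Upk3bl, Nanog and Calcoco2, with fold enrichments of 5.997 to 8.18. The 8 carried none of H3K4me3, H3K9cr and H3K27ac in either treatment.

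Over the 9236 one-to-one domains the median ratio of crotonate width to control width was 1.06 (quartiles 0.835 and 1.48). Of these domains, 2257 were wider in crotonate by 1.5 fold or more (grown, 24.4%) and 1526 were narrower by as much (shrunk, 16.5%). With the crotonate list reduced to as many peaks as control has, its strongest, 1648 had grown and 1681 had shrunk, and the excess of grown domains was not seen. Any widening at all was seen in 57.8%. Edges lay outward by 9.56 Mb in all and inward by 4.95 Mb. Grown domains held 2.64 peaks each in crotonate and 1.35 in control, and shrunk domains 1.22 in crotonate and 1.91 in control. Narrow domains varied most in both directions: under 1 kb (geometric mean of both widths) 34.5% had grown and 32.4% had shrunk, and over 30 kb 0 of 111 had done either.

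Growth and shrinkage went with the absence and presence of the acetyl mark. Of 3181 one-to-one domains that touched an H3K27ac peak of either treatment, 7.83% had grown (6.92% to 8.82%) and 25.7% had shrunk (24.2% to 27.2%). Of 6055 domains that touched none, 33.2% had grown (32.0% to 34.4%) and 11.7% had shrunk (10.9% to 12.5%). The median width ratios were 0.932 with H3K27ac and 1.18 without. The order held at widths up to 10 kb. At 1 to 3 kb, 9.21% had grown and 39.6% had shrunk with H3K27ac, while 41.7% had grown and 12.5% had shrunk without it. At 3 to 10 kb the values were 8.38% grown and 11.8% shrunk with H3K27ac, and 24.1% grown and 4.80% shrunk without it. At 10 to 30 kb shrinkage was rare in both: 14 of 374 domains with H3K27ac had grown (3.74%) and 1 had shrunk (0.267%), while 31 of 443 without it had grown (6.998%) and 0 had shrunk. H3K4me3 alone did not go with shrinkage. Of 1255 domains with H3K4me3 but no H3K27ac, 18.01% had grown and 6.53% had shrunk. Of 647 with H3K27ac but no H3K4me3, 8.96% had grown and 28.6% had shrunk.

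**Figure D2:**
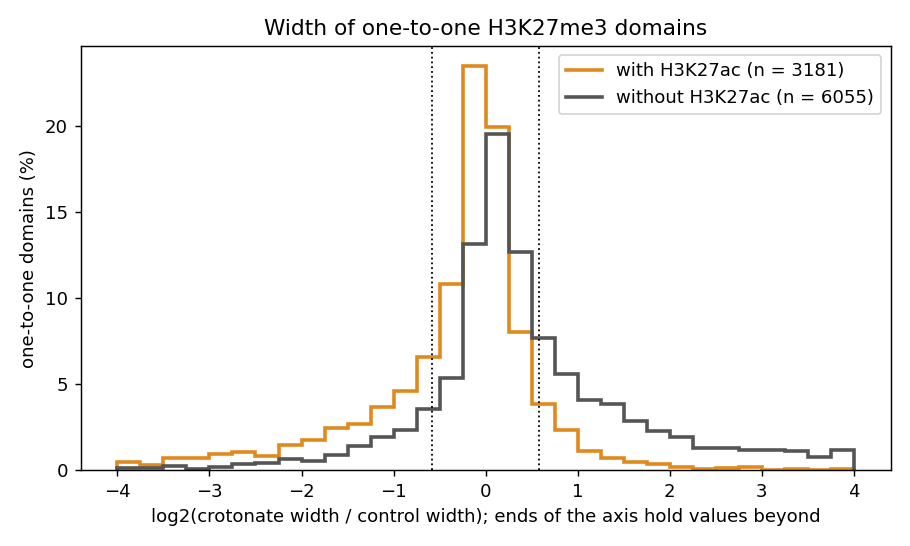
Distribution of log2(crotonate width / control width) over one-to-one domains (y axis, % of each group), for 3181 domains that touch an H3K27ac peak in either treatment and 6055 that touch none. Dotted lines mark a 1.5-fold change in width; beyond them lie 7.83% grown and 25.7% shrunk domains with H3K27ac, and 33.2% grown and 11.7% shrunk domains without.

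By added width, the first grown domains that touch a gene were at Cyp4f14, a cytochrome P450 that inactivates leukotrienes, at Tbca, a tubulin folding cofactor, at Gal3st1, which makes the sulfatide of myelin, and at Vsx1, a homeobox gene of retinal bipolar cells. The Cyp4f14 domain spanned 14.4 kb in 8 peaks in crotonate and 0.340 kb in 1 peak in control. The Tbca domain spanned 14.2 kb in 8 peaks in crotonate, against 1.29 kb in 1 peak in control. At Vsx1, a strong domain in both lists, the width was 18.9 kb in crotonate and 7.71 kb in control, with summit fold enrichments of 76.6 in crotonate and 115 in control. None of the 4 touched H3K27ac in either treatment.

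The first shrunk domains were at Acsf3, a malonyl-CoA synthetase of mitochondria, at Camk2n1, an inhibitor of the kinase CaMKII, at Hs3st3b1, a heparan sulfate sulfotransferase, and at Epha4. The Hs3st3b1 domain was 0.318 kb wide in crotonate and 10.4 kb in control, and its fold enrichment was 2.999 in crotonate and 10.1 in control. The Epha4 domain was 0.291 kb wide in crotonate and 8.73 kb in control, and the control peak over its promoter printed above is among the bases absent from the crotonate list. The Camk2n1 domain was 2.62 kb wide in crotonate and 13.0 kb in control. All 4 touched H3K27ac and H3K9cr in both treatments.

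Crotonate domains formed by fusion outnumbered control domains that split (471 and 196). With the crotonate list reduced to as many peaks as control has, the excess was smaller (330 fused and 252 split). The 4 widest fused domains were all at developmental regulators. At the Hoxc cluster 1 crotonate domain of 308 kb took the place of 6 control domains of 269 kb in sum (chr15:102841144-103149410 in crotonate), with 279 kb under peaks in crotonate and 257 kb in control. At Evx2 and the Hoxd cluster 1 crotonate domain of 185 kb matched 4 control domains of 172 kb, and at Pax2, a paired-box gene of midbrain and kidney, 1 of 180 kb matched 5 of 147 kb. At Six6, a homeobox gene of the eye and pituitary, 1 of 146 kb matched 3 of 137 kb. The other Hox clusters were one to one: Hoxa spanned 197 kb in crotonate and 192 kb in control (chr6:52142921-52339983 in crotonate), and Hoxb 158 kb in crotonate and 155 kb in control.

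The 4 widest split domains lay at Pax7, a paired-box gene of dorsal neural tube and muscle, at Dmbx1, a homeobox gene of the midbrain, at Nr2f1, a patterning gene of the cortex, and at Neurod2, a neuronal transcription factor. At Pax7, 2 crotonate domains of 83.2 kb in sum matched 1 control domain of 84.0 kb, but the peaks inside covered 69.8 kb in crotonate and 64.8 kb in control. At Nr2f1 the peaks covered 42.7 kb in crotonate and 49.5 kb in control. The gaps that opened were short, with a median of 3526 bp over 205 gaps, close to the 3 kb used for merging. Of these gaps, 38.0% touched H3K27ac of the crotonate list and 40.0% touched H3K27ac of the control list (33.2% to 47.1%). Of the 566 gaps closed by fusion, 2.83% touched H3K27ac of the crotonate list and 3.00% that of the control list (1.76% to 4.77%). Of control domains of 5 kb or more, 65.3% of the split ones touched H3K27ac, against 42.6% of the one-to-one domains and 27.6% of those that fused.

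**Figure D3:**
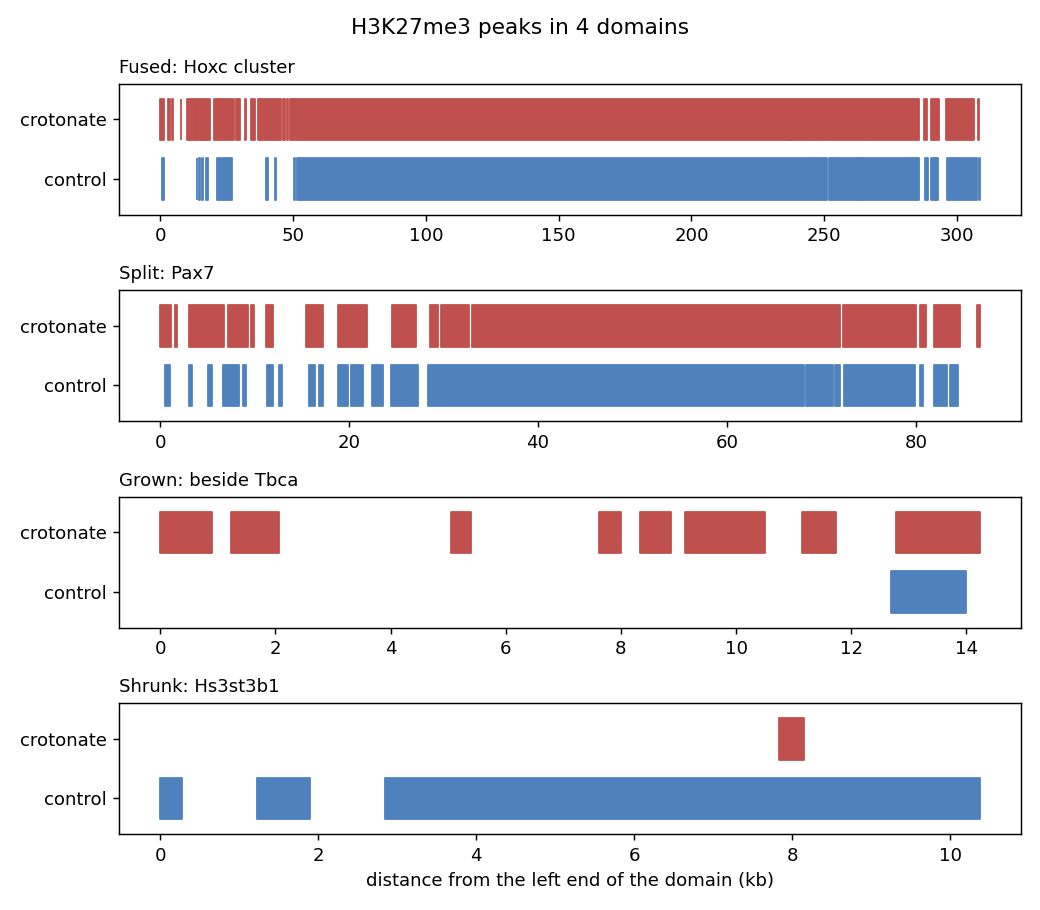
H3K27me3 peaks as bars along 4 domains (x axis, kb from the left end of the domain), crotonate above control in each panel. The Hoxc domain is a single merged domain in crotonate and 6 in control, Pax7 has an opened gap in crotonate, the domain beside Tbca has 8 peaks in crotonate and 1 in control, and Hs3st3b1 has 1 short peak in crotonate and 3 in control.

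Ranks were compared over the one-to-one domains only, by the highest -log10 q of a domain within its list, as a percentile at which 100 is the strongest. At the top of both orders, 3 of the 10, 83 of the 100 and 872 of the 1000 strongest domains were the same in both lists, and the lowest crotonate rank of any of the control 100 was 287. Across the domains Spearman's rho was 0.828, a description over domains of a single library pair. A move up of 20 points or more was seen for 994 domains (10.8%) and a move down of as much for 1036 (11.2%), an order that turned round when domains were ranked by width (1098 up, 940 down). With H3K27ac, 1.07% of the 3181 domains moved up and 21.1% moved down. Without it, 15.9% of the 6055 moved up and 6.04% moved down. Of 4 equal classes by mean rank, moves were commonest in the class next to the weakest, where 53.5% of the 705 domains with H3K27ac moved down and 29.3% of the 1605 without it moved up.

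Wide domains stood less high over their own list in crotonate. Domains over 30 kb had a median fold enrichment of 83.4 in crotonate and 128 in control, which is 14.5 times the median over all one-to-one domains in crotonate and 20.5 times in control. Domains under 1 kb had a median of 3.82 in crotonate and 3.79 in control.

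**Figure D4:**
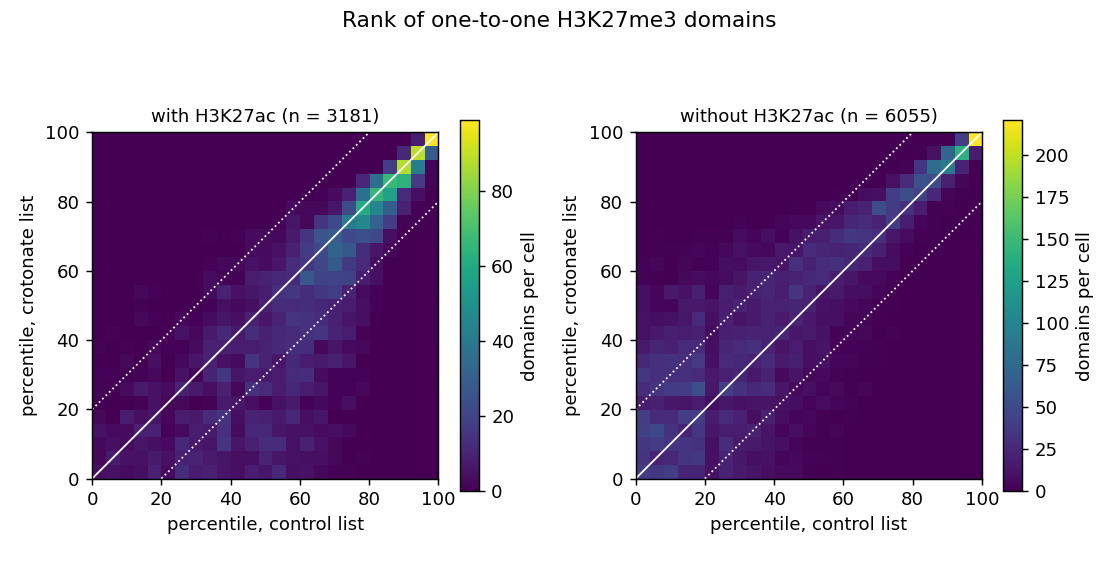
Percentile of one-to-one domains by -log10 q in the crotonate list (y axis) and in the control list (x axis), with 100 the strongest and colour giving the number of domains per cell, for domains with and without H3K27ac in either treatment. The dotted lines mark moves of 20 points; 21.1% of the domains with H3K27ac lie below the lower line and 15.9% of those without lie above the upper line.

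The largest moves up among domains of 5 kb or more were at the agouti gene a, a regulator of coat colour (percentile 56.5 in crotonate, 12.4 in control), at Aldh1a2, which makes retinoic acid (45.3 in crotonate, 1.58 in control), at Cryaa, a lens crystallin (43.7 in crotonate, 1.58 in control), and at Tbca (53.2 in crotonate, 11.1 in control). None of them touched H3K4me3, H3K9cr or H3K27ac in either treatment. The largest moves down were at Hs3st3b1 (percentile 1.83 in crotonate, 66.8 in control), at Igfbp5, a binding protein of insulin-like growth factors (8.55 in crotonate, 65.4 in control), at Fam43a (15.2 in crotonate, 67.6 in control) and at Elfn1, a synaptic adhesion protein (21.9 in crotonate, 73.5 in control). All 4 touched H3K4me3, H3K9cr and H3K27ac in both treatments.

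At the level of genes, H3K27me3 was measured as the base pairs under peaks over the gene body and 1 kb either side, for 20665 protein-coding genes. Of the 6382 genes with the mark in either list, 670 had it in crotonate only (gained, 10.5%) and 752 in control only (lost, 11.8%). The order of these counts turned round with 5 kb either side of the gene (1022 gained, 808 lost). Among genes marked in both, 310 had at least 2 fold more base pairs in crotonate (widened, 4.86%) and 541 at least 2 fold more in control (narrowed, 8.48%). More base pairs in crotonate by any amount were found for 2790 genes (43.7%) and fewer for 3345 (52.4%). The 4704 marked genes with H3K27ac in either treatment had more in 34.4% and fewer in 64.6%, and 15.4% lost the mark. The 1678 without H3K27ac had more in 69.8% and fewer in 18.3%, and 22.2% gained the mark. Thus the crotonate list, with more covered bases in all, covered fewer bases at most genes that carried H3K27ac.

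Genes of neural stem and progenitor cells carried less H3K27me3 in crotonate without exception. Of 30 listed genes 24 were marked in either list, all 24 had fewer base pairs in crotonate, 10 lost the mark and 6 were narrowed, beside 52.4%, 11.8% and 8.48% of all marked genes. All 24 also had H3K27ac, and of the 4704 marked genes with H3K27ac 64.6% had fewer and 15.4% lost the mark. Their windows were covered for 3.39% in crotonate and 6.35% in control, and the median difference was a fall of 1595 bp, against 37.5 bp over all marked genes. Sox1, a transcription factor of neural progenitors, had 0 bp in crotonate and 3476 bp in control, in 2 peaks with a fold enrichment of up to 10.6. A stronger control peak (fold enrichment 63.1, -log10 q 350) reached to within 1 kb of its promoter window but not into the gene window. The strongest gene-bound control-only domain had a -log10 q of 71.5 (Rpl9). The control domain at Sox1 was thus not control only, and H3K27me3 of the crotonate list overlapped it outside the gene window. Gli2, an effector of Sonic hedgehog, had 11.9 kb in crotonate and 18.2 kb in control.

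The list holds the Notch pathway with its Hes effectors, the Id genes and the D cyclins. The members given with values here were chosen after their values were seen. Id3, an inhibitor of differentiation factors, had 0 bp in crotonate and 2587 bp in control. Notch1 had 0 bp in crotonate and 734 bp in control, and Dll1, a Notch ligand, 0 bp in crotonate and 428 bp in control. Hes1, a Notch target that maintains progenitors, had 606 bp in crotonate and 2246 bp in control. Ccnd1 and Ccnd2, the D cyclins of G1, had 0 bp and 757 bp in crotonate, against 1262 bp and 3218 bp in control. At the 10 genes that lost the mark the highest fold enrichment in control inside the gene window was between 3.11 and 10.6. A loss over the window need not be the loss of a domain. At Dll1, Id1 and Id2 a one-to-one domain remained in crotonate outside the window, and at Id2 that domain was 8.54 kb wide in crotonate and 5.34 kb in control. Sox2, Nes, Vim, Fabp7, Fgfr1 and Slc1a3 had no H3K27me3 in either list.

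The genes of the Polycomb complexes leaned the same way. Of 12 marked genes of PRC1 and its CBX readers, 11 had fewer base pairs in crotonate, 1 had more and 3 were narrowed, beside 52.4% with fewer of all marked genes. All 12 had H3K27ac, and 64.6% of marked genes with H3K27ac had fewer. Pcgf2, a PRC1 core subunit, had 8.36 kb in crotonate and 11.2 kb in control, and Pcgf5, a subunit of a variant PRC1, had 0.886 kb in crotonate and 3.43 kb in control. Bmi1, the core subunit best known for stem cell self-renewal, had 4.53 kb in crotonate and 4.14 kb in control. Only 3 of 10 genes of PRC2 were marked in either list, namely Jarid2, Phf19 and Ezh1, each with fewer base pairs in crotonate. The catalytic subunit Ezh2 and the core subunits Eed and Suz12 had no H3K27me3 in either list. Of the 7 marked genes for demethylases of H3K27 and for writers, erasers and readers of crotonyl groups, 3 had more and 4 had fewer. Among them Cdyl, a chromodomain corepressor, had 10.9 kb in crotonate and 9.97 kb in control, while its relative Cdyl2 had 0 bp in crotonate and 1038 bp in control. The Cdyl2 domain was present in both lists, with 571 bp in crotonate just outside the gene window and 1603 bp in control.

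All 39 Hox genes had windows that were 100% covered in both lists, so this measure can show no difference there. Of 73 non-Hox homeobox and paired genes, all marked in both lists, 22 had more base pairs in crotonate (30.1%), 9 fewer (12.3%) and 42 the same (57.5%). Over all marked genes these shares were 43.7%, 52.4% and 3.87%. H3K27ac lay at 22 of the 73, and of marked genes without H3K27ac 69.8% had more and 11.9% the same. Pax5, which commits B cells, had 62.6 kb in crotonate and 43.2 kb in control, and Pax2 had 69.8 kb in crotonate and 55.8 kb in control. Prrx1, of limb mesenchyme, had 5.88 kb in crotonate and 7.80 kb in control, and Nkx2-2, of ventral neural tube, 15.1 kb in crotonate and 16.9 kb in control. Of 23 forebrain patterning factors, 1 had more base pairs, 9 fewer and 13 the same, beside 43.7% with more and 52.4% with fewer of all marked genes. The mark was lost at 2 of the 23. Among them Lhx2, a selector gene of cortex and hippocampus, had 17.975 kb in crotonate and 20.2 kb in control, with fold enrichments of 13.4 in crotonate and 29.1 in control. Emx1, of the dorsal telencephalon, had 9.99 kb in crotonate and 9.77 kb in control.

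Among regulators of other germ layers, members with more base pairs in crotonate outnumbered those with fewer, but many were equal. The share with more was below that of all marked genes (43.7%) and of marked genes without H3K27ac (69.8%). Of those 2 groups only 3.87% and 11.9% were equal. Equal members lower the share with more, so these shares cannot be compared directly. Of 38 marked mesoderm and muscle regulators, 15 had more (39.5%), 7 fewer (18.4%) and 16 the same (42.1%), with H3K27ac at 16. Of all marked genes 43.7% had more, 52.4% fewer and 3.87% the same. Gata4, a factor of heart and gut, had 55.2 kb in crotonate and 50.7 kb in control, and Tbx5, of heart and forelimb, had 47.1 kb in crotonate and 42.8 kb in control. Tcf15, of the somites, went the other way with 2.33 kb in crotonate and 3.34 kb in control. Of 17 endoderm regulators, 6 had more (35.3%), 4 fewer (23.5%) and 7 the same (41.2%), with H3K27ac at 7. Onecut1, a factor of liver and pancreas, had 15.7 kb in crotonate and 14.1 kb in control. Of 13 marked pluripotency and germ line genes, 8 had more (61.5%), 3 fewer, 3 were gained (23.1%) and 1 was widened. H3K27ac lay at 5 of the 13. Of all marked genes 43.7% had more and 10.5% were gained, and of those without H3K27ac 69.8% and 22.2%. Pou5f1 (Oct4), of pluripotent cells, had 3.34 kb in crotonate and 1.18 kb in control, with fold enrichments of 7.09 in crotonate and 4.34 in control. The gained genes were Nanog with 1587 bp, Ddx4, a helicase of germ cells, with 495 bp, and Dppa3, of oocytes and primordial germ cells, with 265 bp. Klf4 had 2.69 kb in crotonate and 3.21 kb in control.

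Lists of signalling genes differed in how near they lay to all marked genes (43.7% more, 52.4% fewer, 11.8% lost). Of 40 marked Wnt pathway genes, 13 had more (32.5%), 24 fewer (60.0%) and 4 lost the mark (10.0%). The ligand Wnt3a had 29.1 kb in crotonate and 19.3 kb in control, the ligand Wnt5a had 2.43 kb in crotonate and 5.74 kb in control, and the receptor Fzd7 had 0 kb in crotonate and 1.95 kb in control. Of 30 genes of the Bmp, Tgf-beta and Shh pathways, 12 had more (40.0%) and 15 fewer (50.0%). Their ligands split: the activin subunit Inhba had 10.9 kb in crotonate and 8.37 kb in control, and the subunit Inhbb had 1.54 kb in crotonate and 4.96 kb in control. Of 35 cadherin, protocadherin and axon guidance genes, 34 of them with H3K27ac, 9 had more (25.7%) and 26 fewer (74.3%). Of marked genes with H3K27ac 34.4% had more and 64.6% fewer. The guidance ligand Slit3 had 104 kb in crotonate and 88.5 kb in control, and Efna5, an ephrin, had 18.7 kb in crotonate and 23.3 kb in control.

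Of 26 marked proneural and neuronal transcription factors, 4 had more (15.4%), 12 fewer (46.2%) and 10 the same (38.5%). Over all marked genes the shares were 43.7% more, 52.4% fewer and 3.87% the same. Of 32 synapse, channel and receptor genes, 12 had more (37.5%) and 19 fewer (59.4%). Rbfox1, a neuronal splicing factor, had 56.5 kb in crotonate and 46.7 kb in control. Grin2b, an NMDA receptor subunit, had 11.1 kb in crotonate and 16.5 kb in control. Of 12 marked astrocyte and oligodendrocyte genes, 4 had more, 8 fewer (66.7%) and 4 lost the mark, with H3K27ac at 10 of the 12. Gfap, the intermediate filament of astrocytes, had 7.19 kb in crotonate and 6.10 kb in control. Ugt8a, of myelin lipid synthesis, had 0 kb in crotonate and 2.01 kb in control. Of 7 marked genes of cell cycle arrest, all with H3K27ac, 6 had fewer, among them Cdkn2c, a CDK inhibitor, with 0.196 kb in crotonate and 1.70 kb in control. The exception was Trp73, of the p53 family, with 34.1 kb in crotonate and 23.1 kb in control. Of 39 marked ribosomal protein genes, 7 had more and 32 fewer (82.1%), all 39 with H3K27ac and with the uncertainty given above.

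**Figure D5:**
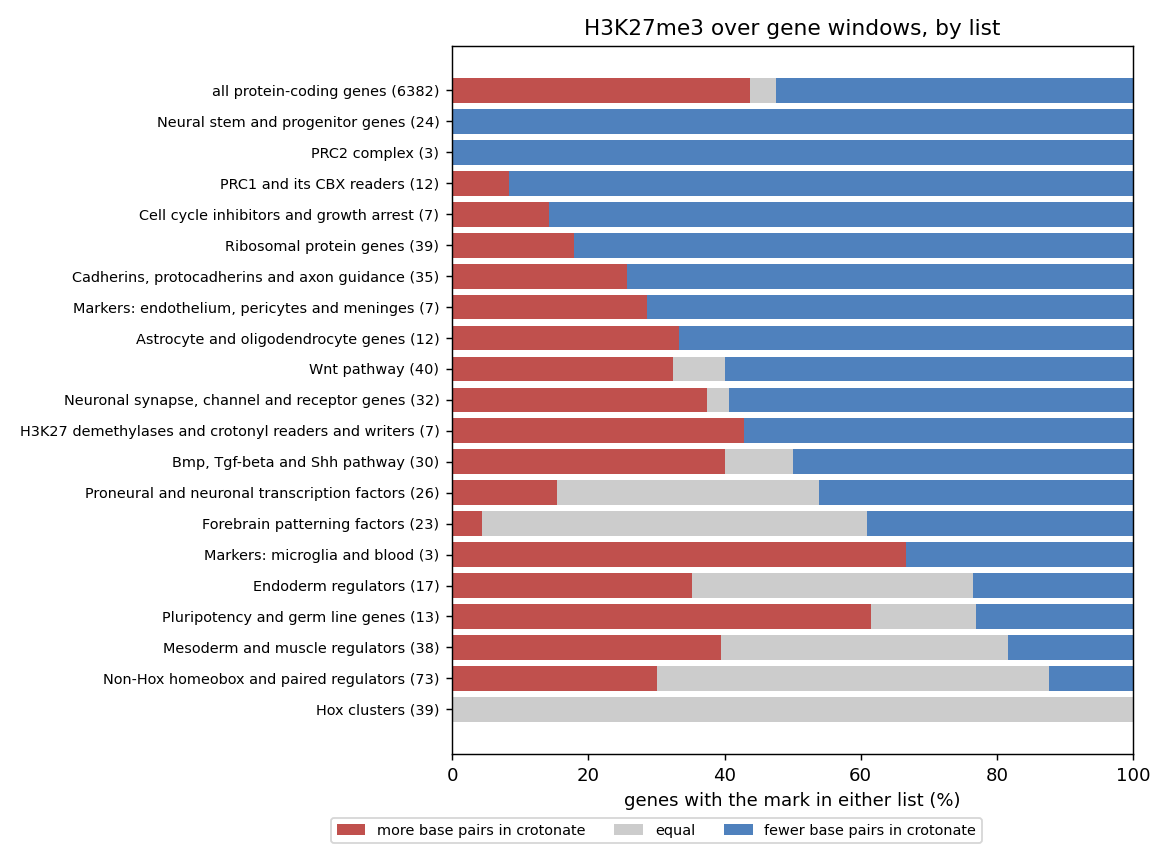
Share of genes with H3K27me3 in either list (x axis, %) that had more, equal or fewer base pairs under peaks in crotonate than in control, for each gene list (number of marked genes in brackets) and for all 6382 marked genes at the top. Neural stem and progenitor genes have fewer in 24 of 24, Hox genes are equal in 39 of 39, and pluripotency and germ line genes have more in 8 of 13.

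Over single genes, chosen after their values were seen, the largest additions were at Skap1, an adaptor protein of T cells (133 kb in crotonate, 92.1 kb in control), at Tenm4, a teneurin (176 kb in crotonate, 153 kb in control), and at the potassium channel gene Kcnq1 (61.6 kb in crotonate, 39.9 kb in control). The largest reductions were at Gse1 (61.1 kb in crotonate, 79.4 kb in control), at Auts2, a neurodevelopmental gene (45.5 kb in crotonate, 62.9 kb in control), at Pdzrn3, a ubiquitin ligase (19.3 kb in crotonate, 30.1 kb in control), and at Cacna1g, a T-type calcium channel gene (8.35 kb in crotonate, 19 kb in control). Long genes can show such differences through many small peaks.

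H3K27me3 at markers of other cells was as follows. Of 10 listed genes of microglia and blood, 3 carried H3K27me3 in either list, 2 of them with more base pairs in crotonate, and of 11 genes of endothelium, pericytes and meninges, 7 did, 2 with more. Their summed covered length was 5.44 kb in crotonate and 4.09 kb in control for the first list, and 24.5 kb in both treatments for the second. Their part in the results was not tested.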

How the data were processed

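Mouse neural stem and progenitor cells were assayed by native ChIP-seq, with 1 library per mark and treatment. The submitters' processing notes name Bowtie2 2.4.1, MACS2 2.2.7.1 and the GRCm38 build. How peaks were called, how duplicates were treated and whether inputs entered is not given in the sources used here, and no input list was used. Each peak has a deposited pileup, which is a coverage signal at its summit, and a fold enrichment, a ratio to background, per the file headers. It also has a −log10 p-value and a −log10 q-value from the authors, and the lists end near a q-value of 0.05. These are the authors' values, and ranks used them only within a list. Fold enrichments printed for both treatments at a gene or domain were not scaled between the lists. Both H3K27me3 lists are from 1 library each, so peaks were called per sample.

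From these, peaks were compared, merged at 3 kb and assigned to RefSeq genes and promoters (GRCm38.p6, matched by symbol and gene ID) with Python 3.11.15, numpy 2.4.6, pandas 2.3.3 and scipy 1.17.1, and the interval code was tested on simulated data. Groups were taken from the labels. No paired fit, test or p-value applies. Named domains are the first 4 of each class that touch a protein-coding gene and, other than single-list domains, reach 5 kb, and named list members are up to 2 with the largest addition and 2 with the largest reduction. Predicted genes and olfactory or vomeronasal receptors were passed over. Some genes of the lists are not reported here by name. The members, lists and rules were chosen with earlier results of these data known, and genes outside the rule are described as full lists or as chosen after their values were seen. Reads carry no molecular identifiers. Alternatives are in the closing section.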

Additional observations from a re-analysis of the deposited data

How the results depend on the processing

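The alternatives gave 110 values for 30 results, 71 of them within 1.5 times the reported count or inside its interval. Counts and shares cannot change sign. None of the differences did, but the order of 3 pairs of counts turned round. Grown and shrunk domains numbered 1648 and 1681 with equal numbers of peaks, gained and lost genes 1022 and 808 with 5 kb windows, and domains moved up and down 1098 and 940 when ranked by width. The 39 values that moved follow. No paired analysis was possible because each treatment has 1 library. With the crotonate list reduced to its strongest peaks, as many as in control, the excess of peaks was 0 by construction, the excess of covered length was 1.68 Mb and gained peaks numbered 8887. In that setting the excess of domains was 236, that of spanned length 1.69 Mb, crotonate-only domains 3923 and gained genes 426. Of domains with H3K27ac 4.76% had then grown and 29.2% had shrunk, and of those without 26.4% and 14.2%. Crotonate-only domains touched H3K27ac in 0.612%, and mesoderm genes with more minus those with fewer base pairs came to 5.
With sharing at 50% of both peaks, gained peaks numbered 23681 and lost peaks 14810, and within 1 kb lost peaks numbered 3789. Merging at 1 kb gave an excess of 5201 domains and 7.18 Mb, 9676 crotonate-only, 4198 control-only, 633 split and 816 fused domains. With H3K27ac 3.90% had then grown and 28.6% had shrunk, without it 30.5% and 12.6%, and 23.4% of control-only domains touched H3K27ac. Merging at 5 kb gave 105 split domains. Merging at 10 kb gave 78 split and 3555 crotonate-only domains and an excess of 1399 domains and 20.7 Mb. Windows of 5 kb around genes gave 1022 gained and 519 widened genes. Chosen after the data were seen, H3K27ac of control only gave 27.3% shrunk with the mark, and H3K27ac of crotonate only gave 31.2% grown and 12.6% shrunk without it. Likewise, gene bodies without the 1 kb gave -6 for PRC1 genes and 4 for mesoderm genes, as members with more minus those with fewer. The cause of these shifts was not tested, other than the fewer peaks used. Read depth is unknown, and a region just under the calling limit counts as absent.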
